A study of Mus musculus with 19 samples.

Results

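The genes that encode voltage-gated calcium and sodium channels were examined in striatal RNA of WT mice and of 3 HD KI genotypes. The rule for members used names and counts. It took the genes whose mouse symbol is Cacna, Cacnb or Cacng followed by a digit, or Scn followed by digits and a or b, with 10 or more counts in at least 4 of the 19 mice. Of the 54232 genes counted, 40 had such a symbol, and 36 of them met the count rule. Cacna1s, Cacng6, Scn4a and Scn11a did not meet it. Scn10a met it but was below the filter on low counts, so 35 members were tested. They comprise 3 L-type, 3 P/Q-, N- and R-type and 3 T-type calcium channel alpha1 genes, 4 alpha2delta genes, 4 calcium channel beta genes, 7 gamma genes, 8 sodium channel alpha genes and 4 sodium channel beta genes.

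The mice were 6 months old and on a C57/BL/6 background, with 7 WT mice and 4 mice of each KI genotype. Mutant HTT is expressed from the mouse Htt gene in all 3 KI genotypes, and the study describes its KI mice as heterozygous, so that they keep a normal Htt allele. KI-FL mice carry full-length mutant HTT. In the other KI genotypes, KI-571 and KI-96, CRISPR/Cas9 disrupted the mutant allele, which leaves an N-terminal HTT fragment with the same polyQ expansion, the shorter fragment being that of KI-96 mice. All cells of the mouse carry these alleles, and RNA was taken from the whole dissected striatum, so that fewer cells of a type and less RNA per cell cannot be told apart.

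A voltage-gated calcium channel is built around an alpha1 subunit, which forms the pore and senses the voltage, and most alpha1 subunits need a beta and an alpha2delta subunit to reach the membrane and to open normally. L-type channels open at strong depolarization and signal to the nucleus, P/Q-, N- and R-type channels drive transmitter release, and T-type channels open near the resting potential and shape burst firing. Sodium channels have a single large alpha subunit that generates the action potential and small beta subunits that change its gating and its anchoring. Spiny projection neurons, the main cells of the striatum, are known for high levels of Scn4b.

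Several sodium channel alpha genes are close copies of each other, so reads from their most similar stretches could be counted on the wrong gene. Of the 11531 runs of 100 bases in Scn1a transcripts, 101 were also found in another member, and the corresponding numbers were 135 of 13111 in Scn2a, 279 of 12550 in Scn3a and 191 of 13251 in Scn9a. No other member shared a run of 100 bases with a member. Outside this family, 13.7% of the runs in Cacnb4 transcripts were shared with A430018G15Rik, a gene on the opposite strand, and the counts of these genes cannot be told apart where they overlap, since the strand setting of the count is not given in the sources used here.

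Genes counted per mouse summed to between 12669809 and 26388542 reads, and the members took 0.541% to 0.691% of them. Counts were scaled by TMM and are given as CPM, the count scaled to a fixed library size, for single genes and, where genes are compared with each other, per kilobase of exon (RPKM). Comparisons used the quasi-likelihood test of edgeR over 18521 genes, adjusted by Benjamini and Hochberg's method, and the fold changes below are on the log2 scale with the standard error (SE) from that fit. The labels do not tell whether mice were littermates or when they were sacrificed, so the p-values measure the spread between these mice. All 14 striatal projection neuron markers were tested and none was at 0 in any mouse. Xist, which is transcribed in female cells, was at 886 CPM or more in all 4 KI-96 mice, as well as in WT replicate 1 and in KI-FL replicate 2, and no other mouse exceeded 5.05 CPM. KI-FL replicate 4 had 3186 tested genes at 0, against 10 to 222 in the other mice, and 2 of these were members. Reads that HTSeq, the counting program, assigned to no feature made up 24.2% in KI-96 replicate 3 and 11.1% to 16.0% in the other mice. Whether these reads lay in introns or between genes was not tested. Cortical neuron markers summed to 1115 CPM in WT replicate 3 and to 69.8 to 481 CPM in the other mice. Choroid plexus markers summed to 5132 and 5361 CPM in KI-571 replicates 2 and 4 and to 3046 CPM in KI-FL replicate 1. In the other mice they summed to 36.7 to 409 CPM, and their part in the channel values was not tested. The targeted gene, Htt, was at 168 to 195 CPM in WT mice, 143 to 240 CPM in KI-96 mice, 104 to 141 CPM in KI-571 mice and 137 to 179 CPM in KI-FL mice.

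In WT striatum Scn4b was the highest member per length. This gene, whose product can produce resurgent sodium current, was at 291 ± 44.3 RPKM (SD, n = 7), and Scn2b was at 85.9 ± 8.49 RPKM. Next came Cacng7 at 61.1 ± 7.60 RPKM and Cacnb1, a beta subunit also known from skeletal muscle, at 41.4 ± 7.62 RPKM. The highest pore-forming genes were Scn2a at 22 ± 1.59 RPKM among the sodium channels and the T-type gene Cacna1h at 19.7 ± 2 RPKM among the calcium channels. The R-type gene Cacna1e was at 17.5 ± 1.66 RPKM and the highest L-type gene, Cacna1c, at 6.68 ± 0.636 RPKM. In all, 23 members had a WT mean above 10 RPKM, 8 lay between 1 and 10 RPKM, and 5 lay below 1 RPKM. The last were Scn9a, Cacna2d4, Scn7a, Cacna1f and Scn10a, and Cacna1f and Scn10a, known from photoreceptors and from pain-sensing neurons, were under 0.1 RPKM. Ranges over the 7 WT mice overlapped for 30 of the 35 pairs of neighbours in this order. Among the pairs that did not overlap were Cacng7 and Cacnb1, Cacna2d1 and Scn3a, Cacng5 and Cacng1, and Scn7a and Cacna1f.

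**Figure D1:**
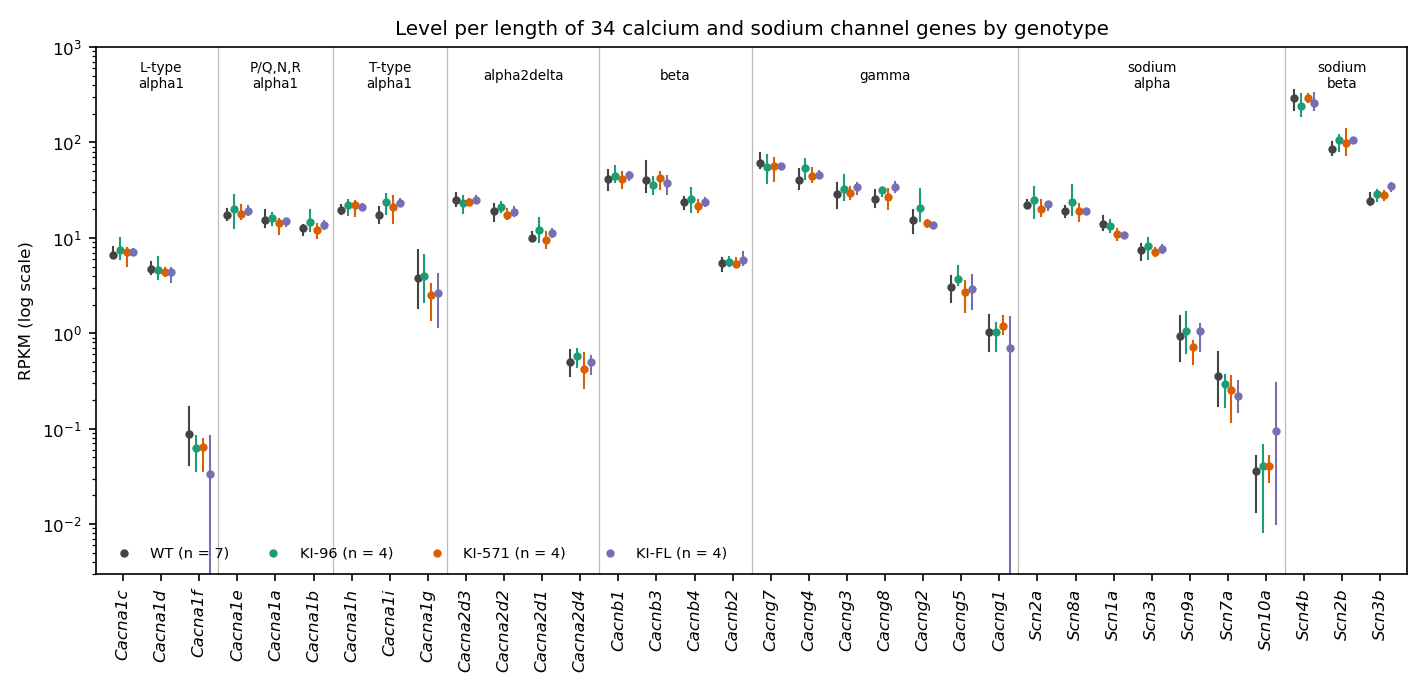
Level per length of 34 members (RPKM, log axis) in each genotype, ordered by subunit class and by the WT mean within a class. Points are means and lines run from the lowest to the highest mouse (n = 7 WT and 4 of each KI genotype), and a line that reaches the lower edge ends at a mouse with 0 counts. Scn4b at 291 RPKM in WT mice is at the top and Scn10a at 0.0364 RPKM at the bottom, and the genotypes overlap in most genes.

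Set against WT, Scn3b, a sodium channel beta gene, rose in KI-FL mice and was the only member past an adjusted p of 0.05 in any of the 7 comparisons by edgeR. Scn1a, a sodium channel alpha gene, had lower values in all 4 KI-FL mice than in any WT mouse without passing adjustment. The 3 comparisons with WT use the same 7 WT mice, so that they are not independent of each other. Of the 35 members, 0 passed in KI-96 mice, where 0.027% of all tested genes did, 0 passed in KI-571 mice (0.0324% of all genes), and 1 passed in KI-FL mice (0.194% of all genes). In the mean of the 3 KI genotypes against WT, 0 members passed, with 0.054% of all genes.

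At an unadjusted p under 0.05, 8 members differed in KI-96 mice, all of them higher, which is 22.9% of the members against 7.45% of all genes, 4.36% for higher and 3.09% for lower genes. In KI-571 mice 2 members did, both lower (5.71%, against 7.72% of all genes, 3.89% for higher and 3.83% for lower genes). In KI-FL mice there were 6, of which 4 were higher and 2 lower (17.1%, against 16.7% of all genes, 7.89% for higher and 8.84% for lower genes). Over all KI mice there were also 6, of which 5 were higher and 1 lower, against 12.9% of all genes (6.03% higher and 6.84% lower). DESeq2 gave 8, 3 and 6 members in KI-96, in KI-571 and in KI-FL mice (8.3%, 8.55% and 18.6% of all genes). The KI-96 count moved with single mice and with Xist as a covariate. High Xist was found in all KI-96 mice but, among WT mice, only in replicate 1. In every KI-96 comparison with WT, here and below, Xist and the genotype can therefore hardly be told apart. It was 2 without KI-96 replicate 3, where 6.58% of all genes were called, and 15 without KI-96 replicate 4, where 13.2% were. It was 4 without KI-96 replicate 1 (5.24%), WT replicate 5 (5.68%) or WT replicate 6 (5.42%). It was 5 without WT replicate 2 (6.33%) or 4 (7.1%), and 5 with only WT and KI-96 mice in the fit (10.1%). It was 3 with the replicate number as a block (2.92% of all genes), 2 against WT replicates 1 to 4 alone (2.91%), 1 when KI-FL replicate 4 was also left out (4.33%), and 0 with Xist as a covariate (1.17%). Replicates 5 to 7 exist only among WT mice, so the block and the fit on WT replicates 1 to 4 are close to the same check. In KI-571 mice the count was 6 without KI-571 replicate 4, where 9.52% of all genes were called. It was 1 without KI-571 replicate 1 or 2, WT replicate 4, 5, 6 or 7, KI-96 replicate 1 or KI-FL replicate 4. It was also 1 with Xist as a covariate, with DESeq2 size factors, and against WT replicates 1 to 4 with or without KI-FL replicate 4. In these fits with a count of 1, between 4.13% and 9.94% of all genes were called. The KI-FL count fell to 2 against WT replicates 1 to 4 alone, where 8.5% of all genes were called, and it was also 2 without KI-FL replicate 4 in that fit (7.02%). The count over all KI mice was 2 in both of these fits (4.51% and 5.75%) and 3 with Xist as a covariate (8.3%). The median log2 fold change over the members was 0.15 in KI-96, -0.084 in KI-571 and 0.011 in KI-FL mice, and over all genes tested it was -0.015, -0.0089 and -0.028.

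**Figure D2:**
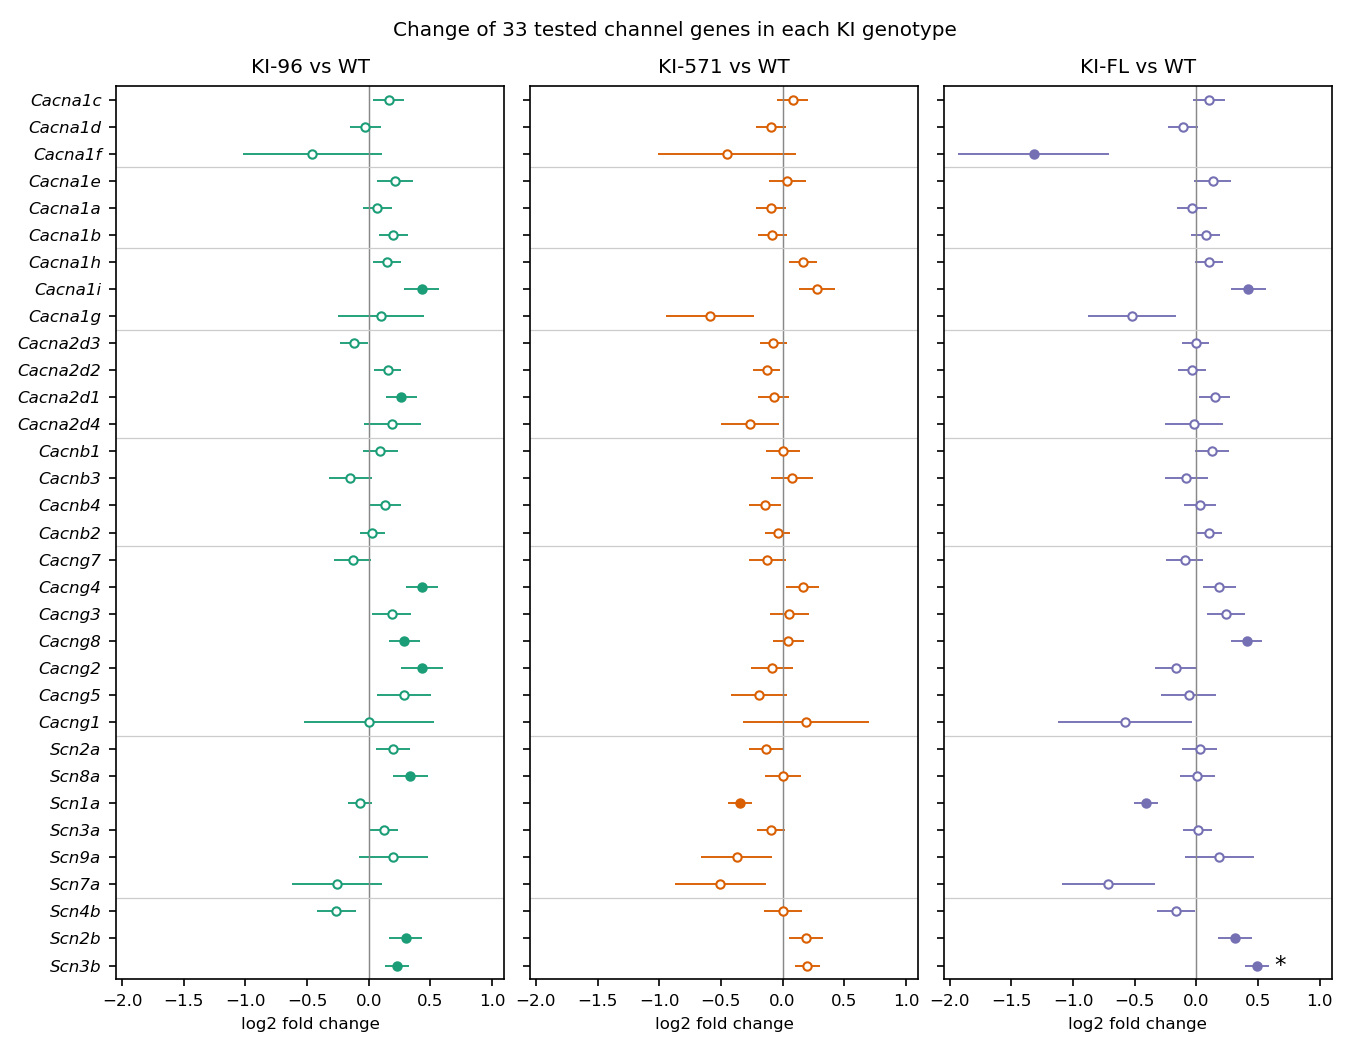
Log2 fold change against WT (horizontal axis, points with SE) of 33 tested members, ordered by subunit class with grey lines between classes, with a panel for each KI genotype. Filled points have an unadjusted p under 0.05 (8, 1 and 6 of those drawn) and the asterisk marks the member with an adjusted p under 0.05, Scn3b in KI-FL mice at 0.49.

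Among the calcium channel pores, the smallest p in KI-96 and in KI-FL mice against WT was that of Cacna1i, which encodes the T-type channel Cav3.3 (ENSMUSG00000022416.15, chromosome 15 from 80287238 to 80398279, plus strand). Its lowest, median and highest WT mice were at 139.6, 177 and 206 CPM. The KI-FL mice were at 253, 240.2, 219.8 and 211 CPM, the KI-96 mice at 222, 243, 286 and 177 CPM and the KI-571 mice at 272, 208, 216 and 141 CPM. All KI-FL mice lay above every WT mouse, whereas KI-96 replicate 4 lay inside the WT range and KI-571 replicate 4 close to its lower end. The log2 fold change was 0.42 (SE 0.144, adjusted p = 0.158) in KI-FL mice, 0.43 (SE 0.144, adjusted p = 0.564) in KI-96 mice and 0.28 (SE 0.144, adjusted p = 0.690) in KI-571 mice. Over all KI mice it was 0.38 (SE 0.112, adjusted p = 0.156). None of these passed. With only WT and KI-FL mice in the fit the adjusted p in KI-FL mice was 0.0469, its only pass in 29 alternatives, against 0.562 with the replicate block and 0.620 against WT replicates 1 to 4 alone. In the mean of the KI genotypes it was 0.0441 without KI-571 replicate 4, the only pass in 28 alternatives, against 0.999 with the block.

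Neither of the other T-type genes had an unadjusted p under 0.05 against WT. Cacna1h was at 173, 180.3 and 217 CPM in the lowest, median and highest WT mice, at 193, 246, 243 and 171 CPM in KI-96, at 225, 236, 234 and 166 CPM in KI-571 and at 220.1, 192, 216 and 196 CPM in KI-FL mice. Every KI group overlapped WT, and the log2 fold change was 0.15, 0.17 and 0.10 with adjusted p of 0.795, 0.828 and 0.673. Cacna1g, the T-type gene of relay neurons, ranged from 18.6 to 75.0 CPM in WT mice, with the highest value in WT replicate 3, the mouse with the highest sum of cortical markers. The part of those markers in this value was not tested. Per length, Cacna1i took 42.6% ± 1.57 (SD, n = 7) of the T-type sum among the WT mice, 47.4% ± 3.39 (SD, n = 4) among KI-96, 45.9% ± 4.93 in KI-571 and 49.7% ± 3.28 in KI-FL mice, and all 4 KI-FL mice (45.9% to 52.8%) lay above the WT range of 40.5% to 44.7%. This share was described and not tested.

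No L-type gene passed adjustment. Cacna1c, which encodes Cav1.2, was at 131, 136 and 170.4 CPM in the lowest, median and highest WT mice, at 137, 157, 212 and 126 CPM in KI-96, at 166, 163, 161 and 108 CPM in KI-571 and at 160.2, 157, 151 and 139 CPM in KI-FL mice. The groups overlapped, with log2 fold changes of 0.16, 0.082 and 0.10 and adjusted p of at least 0.706. Cacna1f was near the limit of detection everywhere, with 0 to 26 counts in a mouse. It was at 0.374, 0.777 and 1.53 CPM in the lowest, median and highest WT mice and at 0.133, 0.317, 0.758 and 0 CPM in KI-FL mice, and the unadjusted p of 0.0427 in KI-FL mice (log2 fold change -1.32 (SE 0.612, adjusted p = 0.281)) includes KI-FL replicate 4, where it was at 0. The KI-96 mice were at 0.433, 0.327, 0.759 and 0.745 CPM and the KI-571 mice at 0.62, 0.714, 0.329 and 0.645 CPM, all inside or below the WT range.

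Cacna1e, the R-type gene, was at 386, 446 and 507 CPM in the lowest, median and highest WT mice and at 496, 517, 714 and 317 CPM in KI-96 mice. KI-96 replicate 3 was the highest of all 19 mice for this gene and KI-96 replicate 4 the lowest. The KI-571 mice were at 555, 442, 421 and 396 CPM and the KI-FL mice at 443, 541, 474 and 478 CPM, so that each group overlapped WT. Its log2 fold change was 0.21 (SE 0.148, adjusted p = 0.770) in KI-96 mice, 0.039 in KI-571 and 0.13 in KI-FL mice, none of which passed. The KI-96 value was 0.0015 without KI-96 replicate 3, 0.38 without KI-96 replicate 4 and 0.018 with Xist as a covariate. Of the 3 P/Q-, N- and R-type genes, which also include Cacna1a and Cacna1b, 0 had an unadjusted p under 0.05 in any comparison with WT, and the class medians were 0.20, -0.085 and 0.076 in KI-96, in KI-571 and in KI-FL mice.

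None of the auxiliary alpha2delta and beta genes passed adjustment. Cacna2d1, an alpha2delta subunit that binds gabapentin, was at 119, 123 and 145 CPM in the lowest, median and highest WT mice, at 159, 128, 199 and 114 CPM in KI-96, at 144, 112, 97.1 and 123 CPM in KI-571 and at 136, 126, 139 and 154 CPM in KI-FL mice. KI-96 replicates 1 and 3 lay above all WT mice and replicate 4 below them. In KI-96 mice Cacna2d1 had a log2 fold change of 0.26 (SE 0.124, adjusted p = 0.669), with an unadjusted p of 0.0448, and it was 0.093 without replicate 3. Cacna2d3, the highest alpha2delta gene per length, was at 186, 219.7 and 257 CPM in the lowest, median and highest WT mice, at 223, 241, 177 and 160.3 CPM in KI-96, at 220.1, 198, 217 and 193 CPM in KI-571 and at 242, 209.7, 215 and 201 CPM in KI-FL mice. Each group overlapped WT, with log2 fold changes from -0.12 in KI-96 to -0.0042 in KI-FL mice. The class medians of alpha2delta genes were 0.17 in KI-96, -0.10 in KI-571 and -0.012 in KI-FL mice.

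Cacnb1 was the highest of the beta genes per length, with a WT range that overlapped that of Cacnb3, and was at 142, 175 and 233 CPM in the lowest, median and highest WT mice, 182, 259, 186 and 174 CPM in KI-96, 198, 179, 223 and 152 CPM in KI-571 and 223, 194, 218 and 185 CPM in KI-FL mice. The KI mice lay within the WT range except for KI-96 replicate 2. Over all KI mice its log2 fold change was 0.076 (adjusted p = 0.812), and it turned negative against WT replicates 1 to 4 alone and under the replicate block. None of the 4 beta genes had an unadjusted p under 0.05 in any comparison with WT, and their class medians were 0.062, -0.018 and 0.068.

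Of the 7 gamma genes, 3 had a higher value with an unadjusted p under 0.05 in KI-96 mice, Cacng2, Cacng4 and Cacng8, where 4.36% of all genes were higher by that measure and, with Xist as a covariate, 0 members were. These encode TARPs, proteins that carry AMPA receptors to the synapse and slow their closing rather than parts of most calcium channels. None passed adjustment. Cacng4 was at 115, 135 and 190.4 CPM in the lowest, median and highest WT mice and at 171, 212, 239.6 and 149 CPM in KI-96 mice, where replicates 2 and 3 lay above the WT range and 1 and 4 inside it. The KI-571 mice were at 192, 138, 168 and 144 CPM and the KI-FL mice at 179, 160.0, 157 and 155 CPM. Its log2 fold change was 0.43 (SE 0.134, adjusted p = 0.557) in KI-96 mice with an unadjusted p of 0.00389, and 0.16 and 0.19 in KI-571 and KI-FL mice. With Xist as a covariate the KI-96 value was 0.24.

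Cacng2, known as stargazin, was at 61.7, 76.1 and 107 CPM in the lowest, median and highest WT mice, 86.2, 103, 180.0 and 83.5 CPM in KI-96, 82.9, 77.2, 85.0 and 72.1 CPM in KI-571 and 78.1, 75.9, 72.6 and 73.2 CPM in KI-FL mice. One mouse, KI-96 replicate 3, stood far above the rest, and the other KI-96 mice lay inside the WT range. Cacng2 in KI-96 mice had a log2 fold change of 0.43 (SE 0.168, adjusted p = 0.629), and without that mouse it was 0.11, and 0.16 with Xist as a covariate. Cacng8 was at 49.5, 58.1 and 74.1 CPM in the lowest, median and highest WT mice, 74.4, 78.8, 78.5 and 63.8 CPM in KI-96, 76.1, 65.5, 60.4 and 47.6 CPM in KI-571 and 70.0, 73.4, 85.9 and 91.3 CPM in KI-FL mice. KI-FL replicates 3 and 4 lay above all WT mice and the other KI-FL mice inside the WT range. Against WT the KI-FL mice had a log2 fold change of 0.41 (SE 0.125, adjusted p = 0.131), with an unadjusted p of 0.00367, and in KI-96 mice it was 0.29 (SE 0.126, adjusted p = 0.649), with 0.17 when Xist was a covariate.

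Cacng7 was the highest gamma gene per length, and its adjusted p was at least 0.771 in each KI genotype against WT. Its lowest, median and highest WT mice were at 132, 143 and 188 CPM, the highest being WT replicate 3. The KI-96 mice were at 124, 149, 91.4 and 180.4 CPM, the KI-571 mice at 96.9, 166, 155 and 131 CPM and the KI-FL mice at 139, 138, 146 and 135 CPM. The fold changes on the log2 scale were -0.13, -0.12 and -0.095. The class medians of gamma genes were 0.29 in KI-96, 0.047 in KI-571 and -0.064 in KI-FL mice, and the KI-96 value was 0.041 with Xist as a covariate.

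Among the sodium channel alpha genes, Scn1a was lower in KI-571 and KI-FL mice, without passing adjustment. Scn1a (ENSMUSG00000064329.13, chromosome 2 from 66270778 to 66440840, minus strand) encodes Nav1.1, the channel that fast-spiking interneurons rely on. The lowest, median and highest WT mice were at 134, 156 and 189 CPM. The KI-FL mice were at 118, 119.6, 125 and 111 CPM, all below the lowest WT mouse. The KI-571 mice were at 137, 105, 129 and 122 CPM, where replicates 2 to 4 were below the lowest WT mouse and replicate 1 was above it. The KI-96 mice, at 129.8, 143, 173 and 150.3 CPM, were spread over the WT range, with replicate 1 just below it. Scn1a had a log2 fold change of -0.41 (SE 0.0993, adjusted p = 0.0744) in KI-FL mice, -0.35 (SE 0.0989, adjusted p = 0.247) in KI-571 mice and -0.074 (SE 0.0979, adjusted p = 0.901) in KI-96 mice, from edgeR's test. Over all KI mice it was -0.28 (SE 0.0736, adjusted p = 0.116). In KI-FL mice the adjusted p was 0.0105 with DESeq2, 0.0377 with only WT and KI-FL mice in the fit and 0.0341 without KI-96 replicate 3, and the value stayed between -0.44 and -0.37 in all 29 alternatives. Those 3 were the only ones past 0.05. In them 509, 336 and 159 of all tested genes passed, against 36 in the main fit. The adjusted p was 0.458 with the replicate block, 0.430 against WT replicates 1 to 4 alone and 0.119 with Xist as a covariate. It was 0.130 against WT replicates 5 to 7 alone and 0.646 against WT replicates 1 to 4 without KI-FL replicate 4. Over all KI mice the adjusted p was 0.0379 with DESeq2 and 0.0409 without KI-96 replicate 3, and it passed in no other of 28 alternatives, with 0.907 under the block, 0.850 against WT replicates 1 to 4 alone and 0.450 with Xist as a covariate.

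The interneuron markers, 10 genes that include Pvalb, Sst and Chat, summed to 416 to 554 CPM in WT mice, 293 to 515 CPM in KI-96 mice, 302 to 479 CPM in KI-571 mice and 351 to 481 CPM in KI-FL mice, with Vip at 0 in KI-FL replicate 4. The median log2 fold change of these markers was -0.29 in KI-571 and -0.21 in KI-FL mice, and their part in the Scn1a values was not tested. In KI-FL mice the astrocyte markers summed to 3814 to 4191 CPM, against 4069 to 4858 CPM in WT mice, and the oligodendrocyte markers to 9818 to 11390 CPM, against 10450 to 14840 CPM, ranges that overlap.

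Scn2a, which encodes Nav1.2, was at 261, 275 and 316 CPM in the lowest, median and highest WT mice, 336, 304, 439 and 206 CPM in KI-96, 316, 242, 248 and 217 CPM in KI-571 and 301, 295, 299 and 247 CPM in KI-FL mice. Its KI-96 mice included the highest value of all 19 mice, replicate 3, and the lowest, replicate 4, and every group overlapped WT. The log2 fold changes were 0.20, -0.13 and 0.028 in KI-96, in KI-571 and in KI-FL mice, and the KI-96 value was 0.0048 without replicate 3 and 0.36 without replicate 4. As a share of the sodium channel alpha sum per length, Scn1a was 21.7% ± 1.99 (SD, n = 7) in WT, 18.8% ± 3.81 (SD, n = 4) in KI-96, 18.9% ± 1.88 in KI-571 and 17.1% ± 0.250 in KI-FL mice. The KI-FL shares, from 16.8% to 17.4%, lay below the WT range of 19.4% to 24.1%, while the share of Scn2a was 33.9% ± 1.20 in WT and 36.1% ± 1.72 in KI-FL mice. These shares describe the same reads as the test of Scn1a.

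In KI-571 mice 6 of the 7 tested alpha genes were lower, with a class median of -0.35. That median moved with the setting, to -0.21 against WT replicates 1 to 4 alone, and lay between -0.38 and -0.22 as each mouse was left out. The class median was 0.18 in KI-96 mice, where it was -0.090 without replicate 3, and 0.011 in KI-FL mice.

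The sodium channel beta genes held the one change that passed. Scn3b (ENSMUSG00000049281.16, chromosome 9 from 40269217 to 40291618, plus strand) encodes the beta3 subunit, which alters the gating of alpha subunits. The lowest, median and highest WT mice were at 119.6, 125 and 161 CPM. The KI-FL mice were at 204, 207, 175 and 169.6 CPM, the KI-96 mice at 159.5, 164, 173 and 131 CPM and the KI-571 mice at 168, 155, 157 and 137 CPM. All KI-FL mice lay above the highest WT mouse, and the other KI genotypes overlapped both WT and, in KI-96 mice only, the lower KI-FL mice. The log2 fold change was 0.49 (SE 0.0988, adjusted p = 0.0443) in KI-FL mice by edgeR. It was 0.23 (SE 0.0995, adjusted p = 0.653) in KI-96 mice and 0.20 (SE 0.0995, adjusted p = 0.666) in KI-571 mice, and 0.31 (SE 0.0767, adjusted p = 0.0980) over all KI mice, for which DESeq2 gave an adjusted p of 0.0163 and the other 27 alternatives gave none under 0.05, the highest being 0.873 against WT replicates 1 to 4 alone.

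The KI-FL call of Scn3b sat close to the threshold. Its log2 fold change was between 0.44 and 0.54 and higher in KI-FL mice in all 29 alternatives, but the adjusted p stayed under 0.05 in 11 of them. It was 0.32 with the replicate number as a block, 0.0822 with Xist as a covariate, 0.428 against WT replicates 1 to 4 alone, 0.0728 against WT replicates 5 to 7 alone, 0.557 against WT replicates 1 to 4 with KI-FL replicate 4 also left out, and 0.00211 with DESeq2. With DESeq2, 509 of all tested genes passed, against 36 in the main fit. Of the 19 fits that left out a mouse, 6 kept the call of Scn3b. The adjusted p was 0.0538, 0.084, 0.0995, 0.107 and 0.0725 without WT replicates 1, 4, 5, 6 and 7, and 0.0572 and 0.0569 without KI-96 replicates 1 and 2. It was 0.0604 and 0.0573 without KI-571 replicates 2 and 3, and 0.0826, 0.0968, 0.0719 and 0.0708 without KI-FL replicates 1 to 4.

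**Figure D3:**
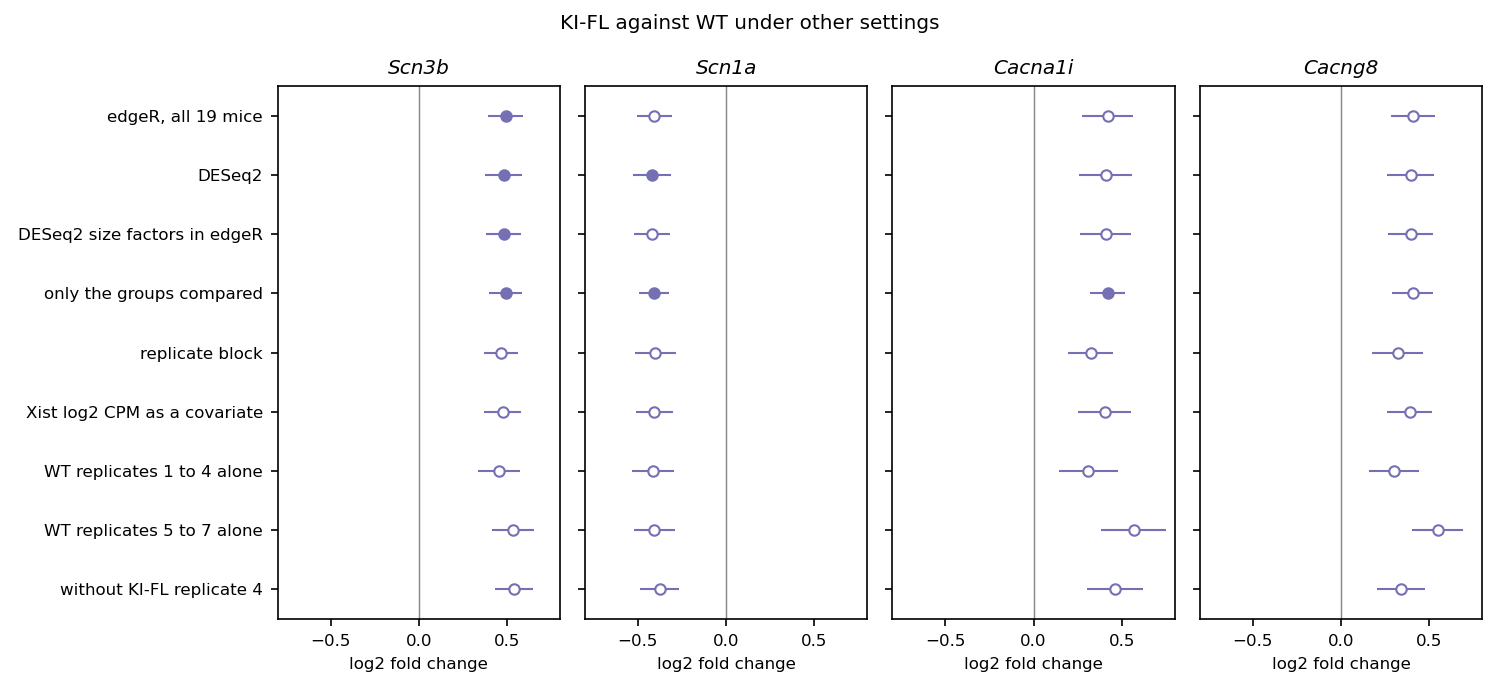
Log2 fold change with SE (horizontal axis) in KI-FL against WT mice of Scn3b, Scn1a, Cacna1i and Cacng8 under 9 settings (rows), filled where the adjusted p is under 0.05. The size changes little for Scn3b (0.46 to 0.54) and Scn1a (-0.42 to -0.38) while the adjusted p crosses 0.05, and Cacng8 is not filled in any row.

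Scn2b lies outside the naming rule and is given because its KI-FL mice did not overlap WT, which was seen in its values. It encodes the beta2 subunit, which is disulfide-linked to the alpha subunit (ENSMUSG00000070304.12, chromosome 9 from 45117782 to 45130070, plus strand, 8325 bases upstream of Scn4b). The lowest, median and highest WT mice were at 342, 392 and 470.3 CPM. The KI-FL mice were at 512, 482, 473 and 520.3 CPM, the KI-96 mice at 556, 531, 506 and 375 CPM and the KI-571 mice at 638, 399, 444 and 344 CPM. KI-FL mice were just above the highest WT mouse, and in the other KI genotypes some mice were above it and others inside the WT range. Scn2b had a log2 fold change of 0.31 (SE 0.135, adjusted p = 0.250) in KI-FL, 0.30 (SE 0.135, adjusted p = 0.653) in KI-96 and 0.19 (SE 0.135, adjusted p = 0.837) in KI-571 mice.

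Scn4b, the most abundant member and a gene known to fall in striatal projection neurons of Huntington's disease models, was at 1093, 1409 and 1763 CPM in the lowest, median and highest WT mice. It was at 1349, 1598, 943 and 943 CPM in KI-96, 1518, 1367, 1592 and 1327 CPM in KI-571 and 1647, 1202, 1238 and 1080.0 CPM in KI-FL mice. KI-96 replicates 3 and 4 and KI-FL replicate 4 lay below the lowest WT mouse, and the other KI mice lay in the WT range. Scn4b had a log2 fold change of -0.26 (SE 0.156, adjusted p = 0.731) in KI-96 mice, 0.0014 (SE 0.154, adjusted p = 0.999) in KI-571 mice and -0.17 (SE 0.155, adjusted p = 0.605) in KI-FL mice. None of these passed adjustment.

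**Figure D4:**
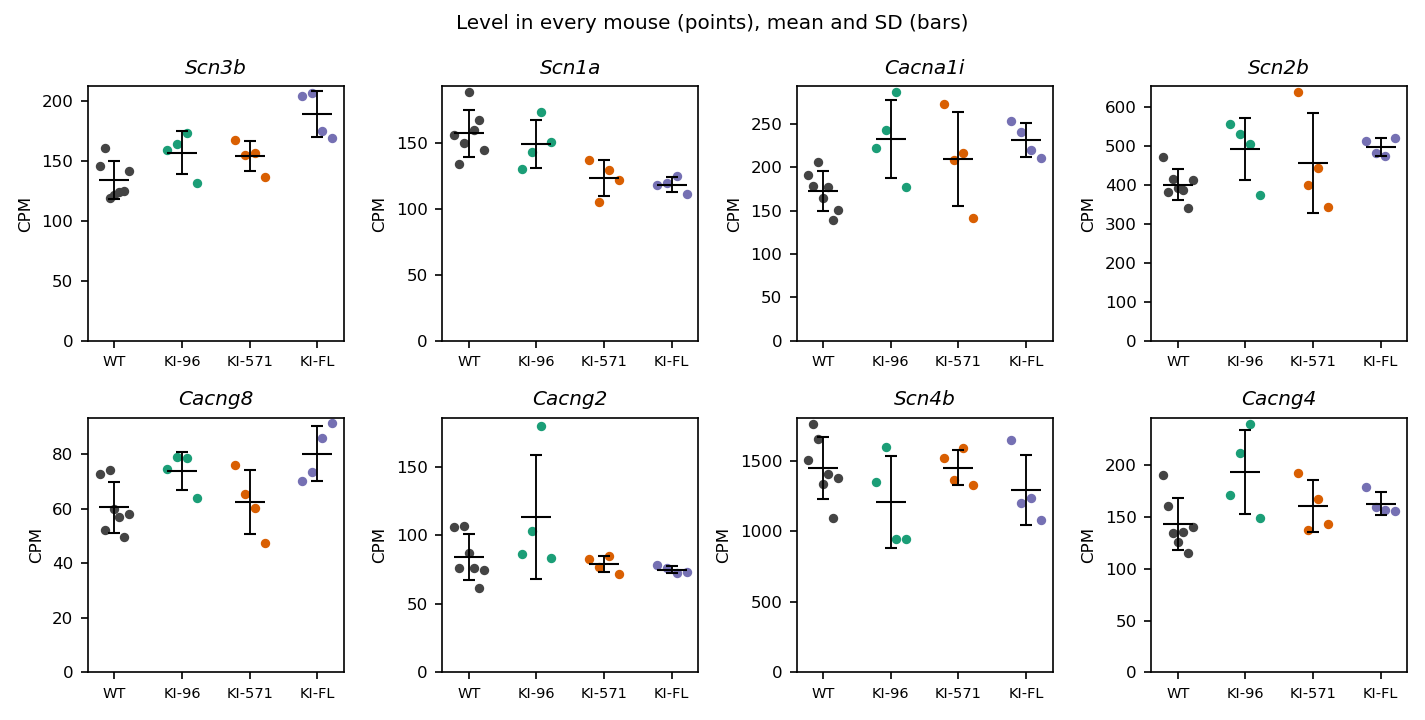
CPM in every mouse (points) with the mean and SD (bars) of 8 members by genotype (n = 7 WT and 4 of each KI genotype), with vertical axes from 0. The highest mean of Scn3b is in KI-FL mice (170 to 207 CPM), and so is the lowest mean of Scn1a (111 to 125 CPM). The lowest single Scn1a value is that of KI-571 replicate 2 (105 CPM), and 1 KI-96 mouse stands apart for Cacng2 (180 CPM).

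Groups that did not overlap were rare. Between KI-FL and WT mice this held for 4 members, Cacna1i, Scn2b and Scn3b (higher) and Scn1a (lower), where 5.29% of all tested genes did not overlap. In KI-96 and KI-571 mice against WT it held for 0 members, with 1.24% and 1.55% of all genes.

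The KI genotypes were also compared with each other, to see whether the length of the mutant HTT fragment went with the level of a channel. No member passed an adjusted p of 0.05 in any of the 3 comparisons, where 0%, 0.0864% and 0.0054% of all genes did in KI-96 against KI-FL, KI-571 against KI-FL and KI-96 against KI-571 mice. At an unadjusted p under 0.05 there were 3 members (8.9% of all genes, 5.13% higher and 3.77% lower), 2 members (8.9%, 4.67% higher and 4.23% lower) and 6 members, all higher (5.51%, 3.14% higher and 2.38% lower), and DESeq2 also gave 0 members past adjustment in each. Between KI-96 and KI-571 mice the count was 0 with Xist as a covariate (1.55% of all genes) and 0 without KI-96 replicate 3 (3.86%). It was 2 without KI-571 replicate 2 (3.38%) and 2 with only KI-96 and KI-571 mice in the fit (5.1%). It was 12 without KI-96 replicate 4 (9.22%), 10 without KI-571 replicate 1 (8.93%) and 10 without a filter on low counts (5.54%). All KI-96 mice had high and all KI-571 mice low Xist, so that here Xist and the genotype cannot be told apart. Against KI-FL mice, where only replicate 2 had high Xist, the KI-96 genotype and Xist can hardly be told apart either. Between KI-571 and KI-FL mice the count was 0 without KI-571 replicate 4 (7.15% of all genes) and 1 without KI-FL replicate 4 (6.71%). It was also 1 when WT replicates 5 to 7 were left out as well (5.62%). It was 4 without KI-571 replicate 1 (10.7%) or KI-FL replicate 1 (12.3%). Between KI-96 and KI-FL mice the count was 6 without KI-FL replicate 3 (11.1%), and 5 without KI-96 replicate 4 (9.94%) or without a filter (9.69%).

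Against KI-FL mice, Cacng2 and Scn1a were higher in all KI-96 mice, and Scn3b was lower in all KI-571 mice, without overlap. The share of all genes without overlap was 3.16% and 4.32%, and it was 2.85% for KI-96 against KI-571 mice, where 0 members were separate. Scn1a had a log2 fold change of 0.33 (SE 0.111, adjusted p = 0.433) in KI-96 against KI-FL mice and 0.27 (SE 0.110, adjusted p = 0.814) in KI-96 against KI-571 mice. Cacng2 had 0.60 (SE 0.193, adjusted p = 0.425) and 0.51 (SE 0.193, adjusted p = 0.750) in the same comparisons, and 0.29 and 0.20 without KI-96 replicate 3, and 0.37 and 0.22 with Xist as a covariate. Scn3b was at -0.29 (SE 0.113, adjusted p = 0.462) in KI-571 and -0.27 (SE 0.113, adjusted p = 0.529) in KI-96 against KI-FL mice.

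The naming rule also took values between KI genotypes for Cacng8 and Cacna2d1. Cacng8 had -0.36 (SE 0.143, adjusted p = 0.468) in KI-571 against KI-FL mice. Cacna2d1 had 0.34 (SE 0.141, adjusted p = 0.828) in KI-96 against KI-571 mice, and 0.17 without KI-96 replicate 3. In that comparison all 7 tested sodium channel alpha genes were higher in KI-96 mice, where 49.2% of all tested genes were. Their median was 0.33, and it was 0.16 without KI-96 replicate 3, the highest of all mice for Scn2a, and 0.27 with Xist as a covariate.

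Proteins that anchor, modulate or work beside these channels were taken from a list of 45 genes, all of which were tested. It includes ankyrins and fibroblast growth factor homologous factors, which bind sodium channels, RIM and ELKS proteins, which hold calcium channels at release sites, calmodulins, and HCN and calcium-gated potassium channels. Of the 45, 0 passed an adjusted p of 0.05 in any comparison by edgeR. At an unadjusted p under 0.05 there were 3 in KI-96 mice, all higher, 2 in KI-571 mice, both lower, and 4 in KI-FL mice, of which 2 were higher and 2 lower. These are 6.67%, 4.44% and 8.89% of the list, against 7.45%, 7.72% and 16.7% of all genes. Between KI genotypes there were 6 in KI-96 against KI-FL mice, all higher (13.3%, against 8.9% of all genes). In KI-571 against KI-FL mice there were 2, of which 1 was higher and 1 lower (4.44%, against 8.9%). In KI-96 against KI-571 mice there were 8, all higher (17.8%, against 5.51%). The part of Xist and of KI-96 replicate 3 in these counts was not tested. Nfasc, which encodes neurofascin of the axon initial segment, had the smallest p in KI-96 mice, with a log2 fold change of 0.25 (SE 0.0988, adjusted p = 0.636). Stac, which encodes an adaptor of L-type channels, had the smallest p in KI-FL mice, at -1.65 (SE 0.618, adjusted p = 0.193). It was near the limit of detection, at 0.374 to 1.31 CPM in WT mice. The KI-FL mice were at 0.0664, 0.396, 0.607 and 0 CPM, and the 0 was in KI-FL replicate 4. The median log2 fold change of the list was 0.12, -0.043 and -0.028 in KI-96, in KI-571 and in KI-FL mice.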

How the data were processed

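Striatal RNA of 19 mice was sequenced, and for each gene the authors deposited the raw count of reads. According to the methods, adapters were removed with BBduk, and STAR (genome GRCm38) and HTSeq produced the counts. Versions, annotation and strand setting are not given in the sources used here. The HTSeq summary lines (20.8% to 32.8% of reads) and 4 columns of other samples were left out. Groups were taken from the sample labels, which give neither the sacrifice batch nor the removed WT sample of the study.

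TMM factors, filterByExpr (minimum count 10, minimum total 15) and the quasi-likelihood test of edgeR 4.0.16 (R 4.3.3) were applied to all 19 mice, with genotype as the only term and a threshold of 0.05 on p-values adjusted over 18521 genes. Biological coefficient of variation was 0.240. RPKM used exon lengths of GENCODE mouse release 21.

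Values in every mouse are given for members past 0.05 in any of 7 comparisons, in each class the member highest in WT mice per length and the one with the smallest p over all KI mice against WT, the 3 smallest p in each KI genotype against WT and in each direct comparison, and Scn4b. Scn2b and Cacna1g were added after their values were seen. Some members and list genes are not reported here singly, but they stay in the fits, counts and class medians. Members and lists were chosen with earlier results of these data known.

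Alternatives were DESeq2 1.42.0, its size factors, no filter or another filter, only the groups compared, a replicate block, Xist as a covariate, WT replicates 1 to 4 or 5 to 7 alone, each mouse left out, a threshold of 0.1 and, after seeing the data, WT replicates 1 to 4 without KI-FL replicate 4. Counts were also simulated with the same coefficient of variation, 0.240, for every gene. On these counts for KI-FL against WT (18006 genes), 69.1% of 2-fold and 100% of 4-fold changes were called and 3.49% of calls were false. For KI-96 against WT, where nothing changed, 0 genes were called.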

Additional observations from a re-analysis of the deposited data

Results flagged for a closer look

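In 64 groups of named members, 6 held a mouse far from the other mice of its genotype, where chance gives about 3. The distance was judged by Dixon's gap criterion on log2 CPM.

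Cacna2d1 was at 7.18 in WT replicate 3, and the other WT mice were at 6.89 to 6.98. Cacng7 was at 7.55 in the same mouse, against 7.05 to 7.26. Cacna1c was at 7.41 in WT replicate 2, against 7.03 to 7.16. In KI-571 replicate 4, Cacna1c was at 6.76 and Cacna1h at 7.38, where the other KI-571 mice were at 7.34 to 7.38 and 7.81 to 7.88. Scn2a was at 7.95 in KI-FL replicate 4, where KI-FL replicates 1 to 3 were at 8.21 to 8.23.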

How the results depend on the processing

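The direction of Scn3b in KI-FL mice held in 29 of 29 alternatives and its call in 11. The other named log2 fold changes were less stable where small: 18 of 71 changed direction under any alternative, none of them past an adjusted p of 0.05 and all with a size of 0.166 or less. The cause was not tested. Replicate numbers were shared by different animals, and the deviations of same-numbered mice correlated between -0.128 and 0.29, so the replicate block does not stand for a pairing. With 4 mice in a KI genotype, a 2-fold change was called in 69.1% of simulated cases, and smaller changes were not simulated. The simulation gave every gene the same variation, so it does not measure the power for single members. Members at a few counts, such as Cacna1f, are limited by depth.

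The number of members past adjustment in KI-FL mice was 1, and it was 2 with DESeq2, 3 with only the groups compared, 2 at a threshold of 0.1, and 0 with the replicate block, with Xist as a covariate, against WT replicates 1 to 4 or 5 to 7 alone, and against WT replicates 1 to 4 without KI-FL replicate 4. Of all tested genes, 36 passed in KI-FL mice in the main fit, 509 with DESeq2 and 336 with only the groups compared. Against WT replicates 5 to 7 alone 40 did, and 0 did in the other fits named here with 0 members. Over all KI mice the number of members was 0, with 2 by DESeq2 and 1 at a threshold of 0.1. There 10 of all tested genes passed in the main fit and 272 with DESeq2.

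Class medians of the log2 fold change against WT moved as follows. With Xist as a covariate they were 0.018 for P/Q-, N- and R-type genes (KI-96), 0.041 for gamma genes (KI-96) and 0.085 for sodium alpha genes (KI-96). Against WT replicates 5 to 7 they were 0.33 for T-type genes (KI-96) and 0.078 for alpha2delta genes (KI-96). With the replicate block they were 0.086 for sodium alpha genes (KI-96), -0.21 for sodium alpha genes (KI-571), 0.055 for alpha2delta genes (KI-FL) and -0.087 for sodium alpha genes (KI-FL). Against WT replicates 1 to 4 they were 0.099 for sodium alpha genes (KI-96), -0.21 for sodium alpha genes (KI-571), 0.042 for alpha2delta genes (KI-FL) and -0.075 for sodium alpha genes (KI-FL). Against WT replicates 1 to 4 without KI-FL replicate 4 they were 0.098 for sodium alpha genes (KI-96), -0.21 for sodium alpha genes (KI-571) and -0.065 for sodium alpha genes (KI-FL).

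The named genes that turned direction against WT had these log2 fold changes. With the replicate block the values were -0.061 for Cacna1e (KI-571), -0.048 for Cacnb1 (all KI), -0.029 for Cacnb1 (KI-96), -0.12 for Cacnb1 (KI-571), -0.045 for Scn2a (KI-FL), -0.052 for Scn2a (all KI), -0.10 for Scn4b (KI-571), -0.11 for Cacng2 (all KI) and -0.052 for Cacng8 (KI-571). Against WT replicates 1 to 4 the values were -0.053 for Cacna1e (KI-571), -0.060 for Cacnb1 (all KI), -0.039 for Cacnb1 (KI-96), -0.13 for Cacnb1 (KI-571), -0.013 for Cacnb1 (KI-FL), -0.045 for Scn2a (KI-FL), -0.036 for Scn2a (all KI), -0.11 for Scn4b (KI-571), -0.10 for Cacng2 (all KI) and -0.052 for Cacng8 (KI-571). Against WT replicates 1 to 4 without KI-FL replicate 4 the values were -0.053 for Cacna1e (KI-571), 0.0086 for Cacna2d3 (KI-FL), -0.044 for Cacnb1 (all KI), -0.039 for Cacnb1 (KI-96), -0.13 for Cacnb1 (KI-571), -0.014 for Scn2a (all KI), -0.11 for Scn4b (KI-571), -0.10 for Cacng2 (all KI) and -0.052 for Cacng8 (KI-571). With Xist as a covariate the values were 0.0040 for Cacna2d3 (KI-FL), -0.0050 for Cacnb1 (KI-96), -0.011 for Scn2a (all KI), -0.0024 for Scn4b (KI-571) and -0.037 for Cacng2 (all KI). Against WT replicates 5 to 7 the values were 0.017 for Cacna2d3 (KI-FL), 0.022 for Scn4b (all KI), 0.16 for Cacng2 (KI-571) and 0.079 for Cacng2 (KI-FL). Without a filter the values were -0.011 for Cacnb1 (KI-571), -0.0033 for Scn2a (KI-FL) and -0.013 for Scn4b (KI-571).

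With 1 mouse left out at a time, members past adjustment ranged from 0 to 2 (KI-FL) and from 0 to 1 (all KI). Of all tested genes, 0 to 159 (KI-FL) and 3 to 173 (all KI) passed in these fits. The medians and folds that moved or turned ranged from -0.21 to 0.063 for L-type genes (KI-96), 0.031 to 0.29 for P/Q-, N- and R-type genes (KI-96), 0.079 to 0.34 for T-type genes (KI-96), 0.091 to 0.21 for alpha2delta genes (KI-96), -0.090 to 0.25 for sodium alpha genes (KI-96), -0.38 to -0.22 for sodium alpha genes (KI-571), -0.10 to 0.030 for sodium alpha genes (all KI), -0.018 to 0.25 for Cacna1c (KI-96), -0.076 to 0.097 for Cacna1e (KI-571), -0.072 to 0.040 for Cacna2d3 (KI-FL), -0.056 to 0.16 for Cacnb1 (KI-96), -0.087 to 0.093 for Cacnb1 (KI-571), -0.30 to 0.019 for Cacng7 (KI-96), -0.23 to 0.010 for Cacng7 (KI-571), -0.011 to 0.091 for Scn2a (KI-FL), -0.038 to 0.084 for Scn2a (all KI), -0.056 to 0.055 for Scn4b (KI-571), -0.051 to 0.12 for Cacng2 (all KI), -0.066 to 0.16 for Cacng8 (KI-571) and -0.18 to 0.013 for Cacna2d1 (KI-571).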

Other observations

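Some mice stood at the extremes of many channel genes at once. The same counts were not made over all tested genes, so it cannot be told whether these extremes are particular to channel genes. KI-96 replicate 3 had the highest CPM of all 19 mice for 14 of the 35 tested members, among them Cacna1e, Cacna1b, Cacna2d1, Cacng2, Scn2a and Scn8a, and the lowest for 4, including Scn4b, Cacng7 and Cacnb3. The genes it held highest had a median span of 157 kb in the genome, and the genes it held lowest a median span of 14.7 kb. These spans were not set against those of all members. WT replicate 3 was highest for 7 members, including Cacnb3, Cacng7 and Cacna1g, WT replicate 6 was lowest for 7, including Cacng2, Cacng4 and Scn2b, and KI-571 replicate 4 was lowest for 6, including Cacna1c, Cacna1h and Scn8a.

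Several members are neighbours in the genome of GRCm38. Scn3a and Scn2a lie 53144 bases apart on chromosome 2, and Scn1a, Scn9a and Scn7a follow each other within 514137 bases on the same chromosome. In KI-FL against WT mice the log2 fold change was -0.41 for Scn1a, 0.18 for Scn9a and -0.71 for Scn7a. Scn9a and Scn7a were low, at 0.927 and 0.357 RPKM in WT mice, and Scn7a had 17 to 35 counts in a KI-FL mouse. Scn2b and Scn4b are 8325 bases apart on chromosome 9, with 0.31 and -0.17. Cacng7 and Cacng8 are 22462 bases apart on chromosome 7, with -0.095 and 0.41.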
